A study of Arabidopsis thaliana with 20 samples.

Results

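The *ripr* mutants of *Arabidopsis thaliana* were represented by 6 of the 20 small RNA libraries made from closed flower buds, and these libraries were taken by their labels. There were 3 libraries of *ripr(insT)* and 3 of *ripr(insC)*, and they were compared with the 3 libraries of wild-type Col-0. The other 11 libraries came from *cer7* (5) and *rst1* (6) and are used only to show where *ripr* differs. By their labels the *cer7* libraries were of the lines *cer7-gabi* and *cer7-sail*, the latter with replicates 1 and 3 only. Those of *rst1* were of *rst1-2* and *rst1-3*. In the direct tests against *ripr* the lines of each mutant formed 1 group. Both *ripr* alleles were made with CRISPR-Cas9 in *AT5G44150*, the gene of RST1 INTERACTING PROTEIN (RIPR), and each carries 1 extra base, a T or a C. Each allele is 1 edited line, from which plants without the Cas9 transgene were taken. The mutants and the wild type share the Col-0 background, in which the 3′–5′ exoribonuclease SOV is not fully functional. The labels give growth on soil at 20 °C with 12 h of light for 3 weeks and then 16 h for 3 weeks, while the methods of the study name only the longer days. Each library holds the buds of 4 pooled plants, and the replicates of a genotype were grown at different dates in different chambers. The deposited values are raw counts of reads of 21 and 22 nt on annotated genes, with totals of 203245 to 230727 for Col-0 and 193616 to 371040 for *ripr*. Levels are given below as CPM (counts scaled to 1e6 per library) after TMM scaling, so that 1 count was worth 2.89 to 5.24 CPM.

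RNA exosomes degrade RNA from the 3′ end, and in the cytoplasm they act together with the Ski complex, a helicase complex that feeds RNA into them. RIPR is named for its interaction with RST1, a plant protein that acts with this machinery. When a plant mRNA or mRNA fragment is not cleared, RNA-dependent RNA polymerase can copy it into double-stranded RNA that Dicer-like enzymes cut into small interfering RNAs (siRNAs) of 21 and 22 nt. Fragments left by microRNA (miRNA) cleavage and mRNAs that escape decay are known sources of such siRNAs. The comparison asks which genes have more or fewer small RNAs of these lengths when RIPR is mutated.

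The edited site is shown first because it defines the mutants. *AT5G44150* has 5 exons and lies at chr5:17763631-17765428 on the − strand of TAIR10. The target of the guide RNA lies in exon 2, at chr5:17764908-17764930 on the + strand, and is printed with the PAM in capitals.
RIPR target: tcataccgatcccaattcgaCGG
Cas9 cuts 3 bases before the PAM, which is after base 177 of the coding sequence of 1068 bases. A T placed there shifted the reading frame so that codon 60 became the first stop, and a C placed there made codon 65 the first stop. Small RNA counts on the gene itself were 0 in each wild-type library and 0 to 1 in the *ripr* libraries, so they do not check the labels.

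Several families of miRNA targets are described below, and the miRNAs that cut them are shown here so that the families can be told apart by sequence. Positions are those of the RefSeq annotation of the TAIR10 assembly. Capitals mark the seed, bases 2 to 8, and none of these miRNAs shares its seed with another.
miR166a-3p: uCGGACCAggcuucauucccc
miR160a-5p: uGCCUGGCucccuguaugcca
miR399b: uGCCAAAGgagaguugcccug
miR167a-5p: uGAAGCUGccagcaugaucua
miR156a-5p: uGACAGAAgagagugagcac
miR319a: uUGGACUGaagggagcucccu
miR168a-5p: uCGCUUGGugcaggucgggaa
miR172a: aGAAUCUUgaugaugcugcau
miR171a-3p: uGAUUGAGccgcgccaauauc
miR393a-5p: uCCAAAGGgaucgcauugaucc
In this order the mature sequences lie at chr2:19176241-19176261 (+ strand), chr2:16340282-16340302 (+), chr1:23345387-23345407 (−), chr3:8108090-8108110 (+), chr2:10676534-10676553 (−), chr4:12353109-12353129 (+), chr4:10578652-10578672 (+), chr2:11942918-11942938 (−), chr3:19073521-19073541 (+) and chr2:16652111-16652132 (+).

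For 9 of these miRNAs the best match in 1 target, or in a pair of targets for miR166a-3p, was located in the annotated transcripts and is printed, with the bases opposite the seed in capitals.
PHB: uugggaugaagccUGGUCCGg
REV: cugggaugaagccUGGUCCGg
ARF10: aggaauacagggaGCCAGGCa
PHO2: uagggcaaaucuuCUUUGGCa
SPL2: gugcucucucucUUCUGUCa
TCP4: gagggguccccuuCAGUCCAg
AGO1: uucccgagcugcaUCAAGCUa
AP2: cugcagcaucaucAGGAUUCu
HAM1: gauauuggcgcggCUCAAUCa
AFB3: gaaacaaugcgaucCCUUUGGa
The *PHB* (chr2:14642530-14642666, − strand) and *REV* (chr5:24398787-24398898, + strand) sites differ in their first base, pair with miR166a-3p at 17 of 21 positions and are interrupted in the gene by an intron of 116 and 91 bases. The *ARF10* site (chr2:12115741-12115761, + strand) paired with miR160a-5p at 19 of 21 positions. The *PHO2* site (chr2:14282106-14282126, − strand) lies in the 5′ UTR and the others lie in coding sequence, among them those of *SPL2* (chr5:17360758-17360777, − strand), *TCP4* (chr3:5063300-5063320, + strand), *AGO1* (chr1:17891529-17891549, − strand) and *AP2* (chr4:17403019-17403039, + strand). The *HAM1* site (chr2:18619128-18619148, − strand) paired with miR171a-3p at 21 of 21 positions and the *AFB3* site (chr1:4369085-4369106, − strand) with miR393a-5p at 20 of 22 positions. A match is a description of the sequence and was not tested as a place of cleavage.

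Of 2916 genes with enough counts to test, 288 had more small RNAs in *ripr* than in the wild type (9.88%) and 21 had fewer (0.720%), at an adjusted p below 0.01 and a log2 fold change past 1 by the quasi-likelihood test of edgeR, Benjamini-Hochberg adjusted. These genes are called raised and lowered below. The median log2 fold change was 2.59 over the raised, −1.26 over the lowered and 0.07 over all tested genes. Changes above 4 on the log2 scale were found for 44 of the raised genes and above 6 for 16. In 281 of the 288 raised genes every *ripr* library lay above every wild-type library, which held for 472 (16.2%) of all tested genes, and in 20 of the 21 lowered genes every *ripr* library lay below, which held for 241 (8.26%). The libraries came from whole buds, so more RNA per cell and more cells of a type cannot be told apart.

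**Figure D1:**
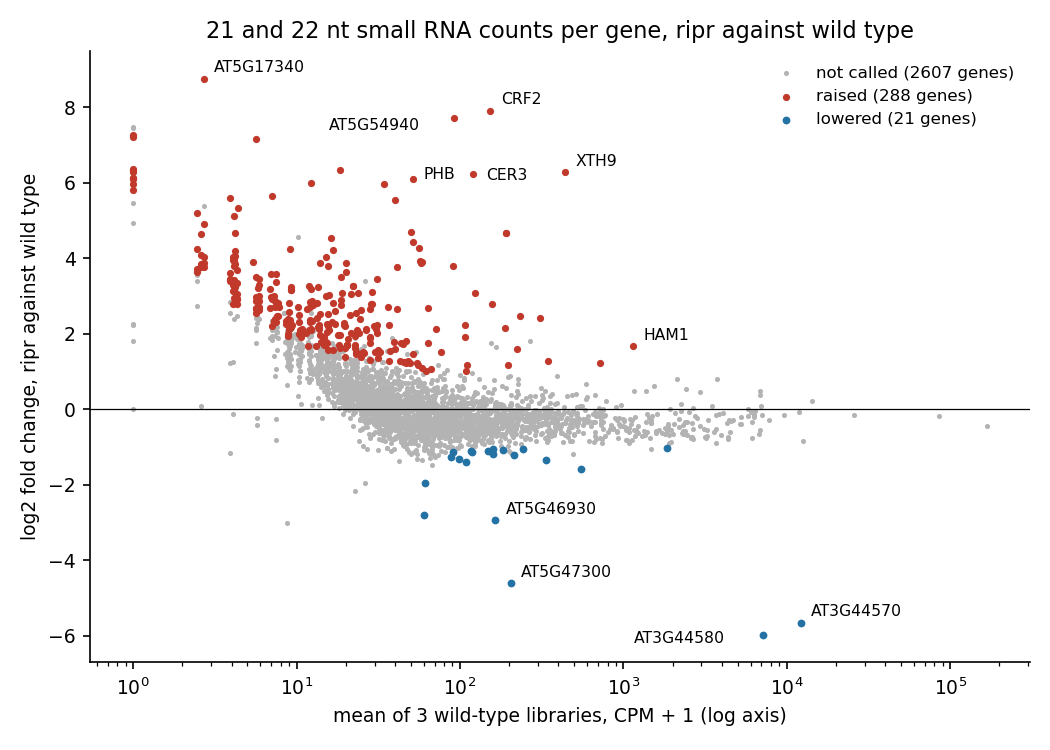
Log2 fold change of *ripr* against the wild type (vertical axis) by the mean level in 3 wild-type libraries (horizontal axis, CPM + 1, log scale) for 2916 tested genes. The 288 raised genes (red) lie mostly at the left, with *CRF2*, *AT5G54940*, *XTH9* and *CER3* standing out at higher wild-type levels, and the 21 lowered genes (blue) lie at higher levels.

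The wild-type libraries limited these counts. Without wild-type replicate 2 the test called 186 genes raised and 13 lowered, without replicate 3 it called 190 and 26, and without replicate 1 it called 204 and 15. A test against a log2 fold change of 1 called 127 genes raised and 5 lowered. In the wild type 10 of the raised genes had no count and 58 had 1 to 3 counts in total. A gene with so few wild-type counts passed the filter on low counts only through the mutants, so its place among tested genes is not independent of its change. Shares of gene lists and product classes that hold such genes are therefore descriptions. Of the 262 tested genes below 10 CPM in the wild type 119 were raised, against 19 of the 839 genes at 100 CPM or more. The median log2 fold change of these 839 genes was −0.30. When TMM factors were computed on genes of at least 100 CPM, a choice made after seeing the data, the median of all genes moved by 0.21, 374 genes were raised, which included all 288, and 10 were lowered, all of them among the 21.

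The raised genes took up 15.5% ± 2.00 (SD, n = 6) of all counts in *ripr* against 0.932% ± 0.0151 (SD, n = 3) in the wild type, a description since the genes were chosen in these libraries. A large part of these counts fell on a few genes. *CRF2* alone held 3.49% ± 0.465 of the *ripr* counts, *XTH9* 3.22% ± 1.27 and *AT5G54940* 1.83% ± 0.252 (SD, n = 6). In the wild type the same 3 genes held 0.0655% ± 0.0164 of the counts together (SD, n = 3).

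*CRF2* (*AT4G23750*, chr4:12376122-12378032, + strand) encodes CYTOKININ RESPONSE FACTOR 2, an AP2/ERF transcription factor. Its level was 127.6, 157.9 and 171.8 CPM in the wild-type libraries, while the *ripr* libraries ranged from 29770 over a median of 36830 to 45650 CPM. The groups were far apart, and the log2 fold change was 7.91 ± 0.302 (SE, edgeR adjusted p = 1.3e-16). *AT5G54940* (chr5:22307982-22309453, − strand) encodes a protein of the SUI1 family of translation initiation factors and had the smallest adjusted p. It rose from 81.6, 76.5 and 114.6 CPM to between 15280 and 22230 CPM with a median of 20170 CPM. The 6 *ripr* libraries lay close together and far above the wild type, and the log2 fold change was 7.72 ± 0.241 (SE, edgeR adjusted p = 9.9e-22).

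*XTH9* (*AT4G03210*, chr4:1415617-1417444, + strand) encodes a xyloglucan endotransglucosylase/hydrolase, an enzyme that remodels the cell wall. The wild-type libraries had 372.5, 382.7 and 559.6 CPM and the *ripr* libraries 17860 to 55470 CPM with a median of 29930 CPM, a log2 fold change of 6.27 ± 0.482 (SE, edgeR adjusted p = 4.2e-08). The *ripr* libraries were spread more widely here than for *AT5G54940*, and the groups did not overlap. *CER3* (*AT5G57800*, chr5:23420184-23424117, + strand) encodes a subunit of the complex that makes very-long-chain alkanes of the stem wax. It had 148.0, 110.0 and 101.3 CPM in the wild type and 4777 to 15020 CPM in *ripr* with a median of 8899 CPM. *CER3* was raised by 6.23 ± 0.530 on the log2 scale (SE, edgeR adjusted p = 1.3e-07), without overlap. Of 10 tested genes of wax synthesis and export (20 listed, median log2 fold change 0.71) *CER3* was the 1 raised, near the share of all tested genes (9.88%), while 4 were higher at an unadjusted p below 0.05 and 2 were raised with TMM factors from genes of at least 100 CPM. The list held 3 elongases of very-long-chain fatty acids that did not pass the test, *KCS2* at 1.28 (edgeR adjusted p = 0.022, every *ripr* library above the wild type), *KCS1* at 1.67 and *KCS6* at 0.59.

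**Figure D2:**
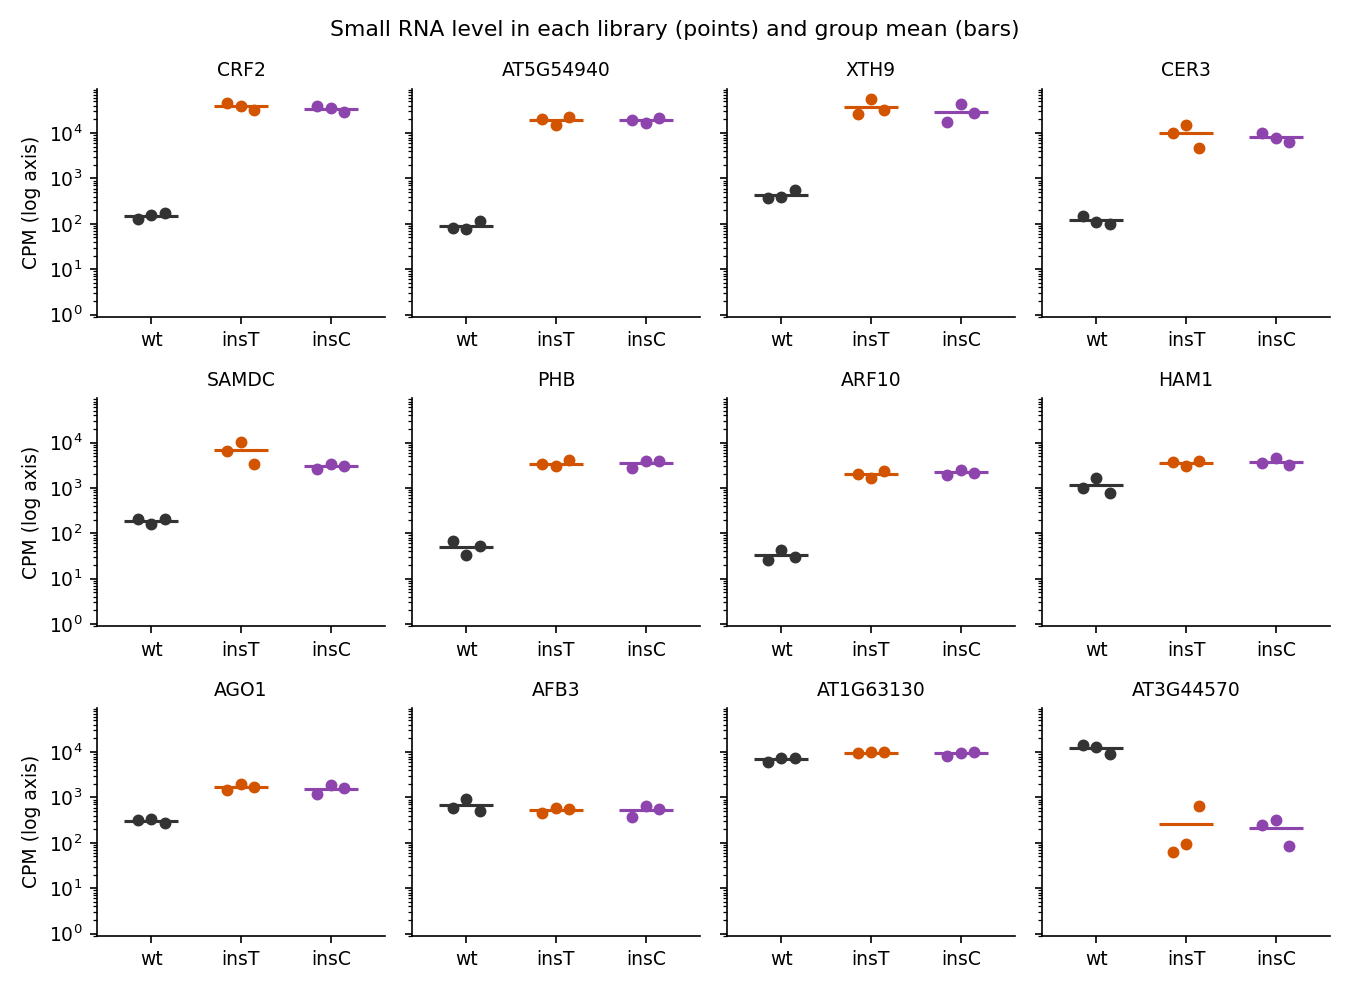
Small RNA level (CPM, log axis) of 12 genes in each library of the wild type, *ripr(insT)* and *ripr(insC)* (points, 3 per group) with the group mean (bars). *CRF2*, *AT5G54940*, *XTH9*, *CER3*, *SAMDC*, *PHB*, *ARF10*, *HAM1* and *AGO1* are higher in every *ripr* library, *AFB3* overlaps between groups, *AT1G63130* differs little and *AT3G44570* is lower.

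Other genes had almost no small RNAs in the wild type. *AT5G17340*, which encodes a putative membrane lipoprotein, had 1 count in 1 wild-type library and 131 to 382 counts in the *ripr* libraries, a ratio of levels of 571 with a counting interval from 102 to 22580 (exact, 95%). *STP2*, a sugar transporter gene, had 1, 0 and 2 counts in the wild type and 94 to 510 counts in *ripr*, a ratio of 165 (56.2 to 800). *AT2G39850*, which encodes a subtilisin-like protease, rose from 10.2, 33.5 and 8.81 CPM to between 967.1 and 2129 CPM with a median of 1354 CPM, by 6.34 ± 0.443 on the log2 scale (SE, edgeR adjusted p = 1.4e-10). With 0 counts in all 3 wild-type libraries, a floor of 3 counts over that group gives lower bounds only. On this scale *PAP6* and *PAP14*, both genes of purple acid phosphatases, were at least 14.9-fold and at least 7.75-fold higher in *ripr*, *AT1G54400* (an HSP20-like chaperone) at least 14.3-fold, *AT1G01990* at least 7.87-fold and *MAPKKK14*, a protein kinase gene, at least 7.39-fold. The intervals and floors cover counting error only.

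Targets of miRNAs were taken from several lists. Across the lists of miRNA targets 34 of 52 tested genes (65.4%, of 88 listed) were raised and none lowered, with a median log2 fold change of 2.23, beside 9.88% and 0.07 for all tested genes. Some tested members, such as *CUC1* and *SPL11* with 0 to 1 counts in each wild-type library, passed the filter on low counts only through the mutants. The share and the median are therefore a description. Leaving out single libraries gave 27 to 36 raised. The 36 untested members, among them all 8 *NF-YA* genes cut by miR169, had at most 13 counts in any of the 9 libraries.

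All 5 class III HD-ZIP genes, transcription factors of organ polarity and vascular development cut by miR165 and miR166, were raised, with a median of 4.70. *PHB* (*AT2G34710*, chr2:14639323-14644355, − strand) had 66.3, 33.5 and 52.9 CPM in the wild type and 2744 to 4054 CPM with a median of 3607 CPM in *ripr*, a log2 fold change of 6.10 ± 0.236 (SE, edgeR adjusted p = 2.8e-19). *REV* (*AT5G60690*) had 30.6, 38.3 and 48.5 CPM and 1510 to 2154 CPM with a median of 1814 CPM, 5.53 ± 0.237 (SE, edgeR adjusted p = 4.0e-18). Neither gene had overlapping groups, and *PHV* followed at 4.70 ± 0.307 (SE, edgeR adjusted p = 3.6e-13). *ATHB-15* rose by 3.77 and *HB-8*, the family's least covered member with 0, 4.78 and 13.2 CPM in the wild type and a median of 73.6 CPM in *ripr*, by 3.59. *REV* overlaps a neighbouring gene, and without a statement on how reads in shared stretches were counted its value can include reads of that neighbour. Among the genes named below the same holds for *CSD1*, *LCR*, *TOE3*, *GRF1*, *GRF3*, *GRF9*, *AFB3*, *GRH1*, *DCL1*, *MT3*, *EMB2763*, *CAB1*, *LHCB6*, *AT1G09310*, *AT3G09440*, *AT5G63020*, *AT5G35370*, *ASB1* and *AT5G11430*, and among those above for *KCS2*.

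The 3 repressor-type auxin response factors cut by miR160 were raised, *ARF10* most. *ARF10* (*AT2G28350*, chr2:12113889-12116957, + strand) had 25.5, 43.1 and 30.8 CPM in the wild type and 1642 to 2515 CPM with a median of 2113 CPM in *ripr*. The groups did not overlap, and the log2 fold change was 5.98 ± 0.276 (SE, edgeR adjusted p = 2.5e-17). *ARF16* and *ARF17* rose by 3.08 and 3.64. Both activator-type factors cut by miR167 rose too, *ARF6* by 3.07 ± 0.256 (SE, edgeR adjusted p = 8.7e-11) and *ARF8* by 2.12 ± 0.280 (SE, edgeR adjusted p = 9.0e-07). Of the 3 *ARF* genes targeted by *trans*-acting siRNAs of *TAS3*, *ETT* was raised by 1.74 ± 0.327 (SE, edgeR adjusted p = 0.00020), while *ARF2* had a log2 fold change of 0.77 and *ARF4* of −0.0037.

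Families of further transcription factors followed. Of 7 tested *SPL* genes, regulators of phase change cut by miR156, 6 were raised (11 listed, median 2.99). This number was 4 without wild-type replicate 3 and 4 in DESeq2. *SPL2* had 40.8, 9.57 and 17.6 CPM in the wild type and 110.1 to 304.6 CPM with a median of 169.0 CPM in *ripr*, 3.07 ± 0.379 (SE, edgeR adjusted p = 2.3e-07). *SPL10* rose by 3.00, *SPL3* by 2.10 and *SPL9*, which overlaps the gene of miR156j, by 2.99, the last call being lost under 2 of the alternatives. Of 7 tested *TCP* and *MYB* genes cut by miR319 and miR159, 6 were raised (9 listed, median 2.24). Here 4 were raised without wild-type replicate 3 and 5 in DESeq2. *TCP4*, a regulator of leaf growth, had 178.6, 186.6 and 105.7 CPM in the wild type and 916.0 to 1369 CPM with a median of 1029 CPM in *ripr*, 2.79 ± 0.239 (SE, edgeR adjusted p = 1.4e-10). *TCP2*, *TCP3* and *MYB33* rose by 2.24, 2.14 and 2.71. The boundary genes *CUC1* and *CUC2*, cut by miR164, were the tested members of 6 listed *NAC* genes and both were raised, *CUC2* by 3.23 ± 0.470 (SE, edgeR adjusted p = 4.7e-06).

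Single targets of other miRNAs were raised as well. *PHO2*, a ubiquitin-conjugating enzyme of phosphate homeostasis cut by miR399, had 45.9, 71.8 and 52.9 CPM in the wild type and 681.8 to 1039 CPM with a median of 821.2 CPM in *ripr*, 3.87 ± 0.299 (SE, edgeR adjusted p = 1.4e-11). *AGO1*, the main effector of miRNAs and itself cut by miR168, had 311.2, 334.8 and 273.2 CPM and 1202 to 1957 CPM with a median of 1638 CPM, 2.41 ± 0.231 (SE, edgeR adjusted p = 1.8e-09). Neither gene had overlapping groups. Of 6 tested genes of the silencing machinery *AGO1* was the 1 raised (16.7% beside 9.88% of all tested genes, 17 listed, median 0.10), and *DCL1*, also a miRNA target, had a log2 fold change of 0.37, *AGO2* of −0.42 and *DCL4* of −0.75. *LCR*, an F-box gene cut by miR394, rose by 2.23, *AGL16*, a MADS-box gene, by 2.49 and *CSD1*, a copper/zinc superoxide dismutase gene, by 2.36, the last call being lost under 2 of the alternatives.

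The families cut by miR171, miR172 and miR396 were mixed. *HAM1*, a GRAS-family regulator of meristems cut by miR171, had 1015, 1674 and 766.7 CPM in the wild type and 3099 to 4559 CPM with a median of 3666 CPM in *ripr*, 1.68 ± 0.191 (SE, edgeR adjusted p = 5.8e-08). The groups did not overlap, and *HAM1* was the only raised gene of the 3 in its family. *HAM2* was at 0.67 (edgeR adjusted p = 0.0045) and higher in every *ripr* library, but short of the fold threshold. *HAM3* was at 0.35 (edgeR adjusted p = 0.21), and its groups overlapped. *AP2*, a floral regulator cut by miR172, rose by 2.47 ± 0.239 (SE, edgeR adjusted p = 2.0e-09) and *TOE2* by 1.59, a call lost under 2 of the alternatives, while *TOE3* (1.74) and *RAP2.7* (0.65) did not pass. In the miR396 family *GRF1* rose by 1.70 and *GRF9* by 2.71, while *GRF3* (1.25) and *GRF8* (2.00) did not pass, and the *GRF1* call was lost under 6 of the alternatives.

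None of the 5 targets of miR393, auxin receptor genes and the bHLH gene *AT3G23690*, was called by edgeR or DESeq2. Beside them stand 9.88% raised and 0.720% lowered of all tested genes in edgeR. In edgeR 3 of the 5 had an unadjusted p below 0.05, 2 of them higher and 1 lower in *ripr*. *AFB3* had 571.5, 918.4 and 515.5 CPM in the wild type and 362.3 to 652.9 CPM with a median of 554.2 CPM in *ripr*, so the groups overlapped. Its log2 fold change was −0.34 ± 0.219 (SE, edgeR adjusted p = 0.30). *AFB2* was at −0.71 ± 0.196 (SE, edgeR adjusted p = 0.0087) and lower in every *ripr* library, but short of the fold threshold. *GRH1* was at 1.38 (edgeR adjusted p = 0.061) and *AT3G23690* at 0.87 (edgeR adjusted p = 0.0026). The median of this list was −0.12 with the main scaling and 0.10 with TMM factors from genes of at least 100 CPM, under which *AT3G23690* passed both thresholds.

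**Figure D3:**
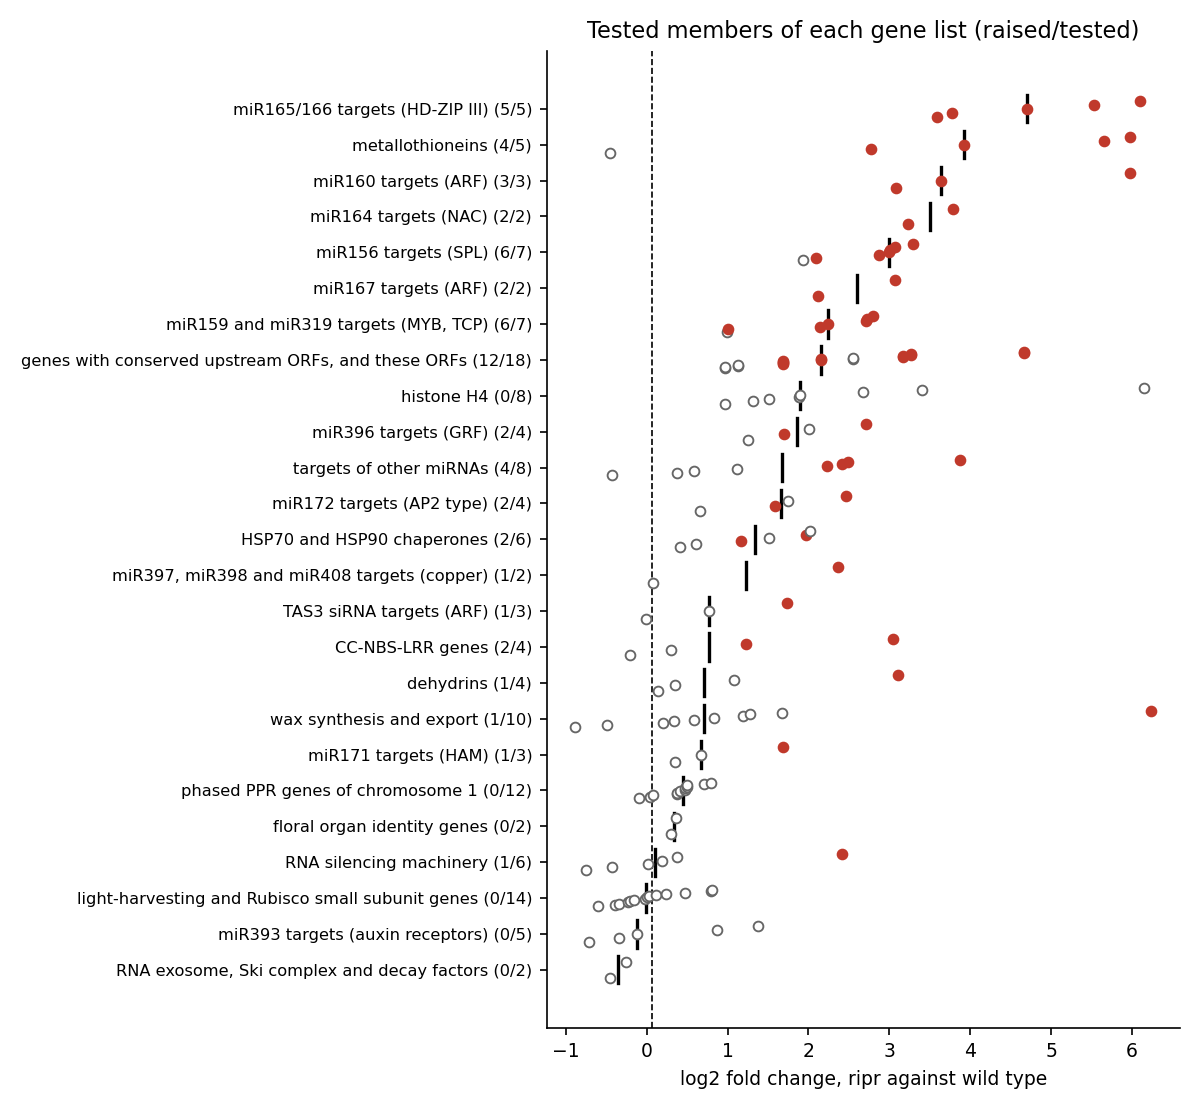
Log2 fold change of *ripr* against the wild type for the tested members of each gene list (points, red when raised), with the list median (black bars) and the median of all 2916 tested genes (dashed line, 0.07). Counts of raised and tested genes follow each name, such as 5 of 5 for class III HD-ZIP genes and 0 of 5 for miR393 targets.

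The pentatricopeptide repeat (PPR) genes of chromosome 1, known sources of phased secondary siRNAs, differed widely in level, and *AT1G06580* had only 3 to 10 counts in the wild type and 6 to 19 in *ripr*. None of 12 tested members (13 listed) was called by edgeR or DESeq2, where edgeR called 9.88% of all tested genes raised and 0.720% lowered. At an unadjusted p below 0.05 in edgeR 4 were higher, and the median log2 fold change was 0.44. *AT1G63130* had 6067, 7275 and 7283 CPM in the wild type and 8372 to 10180 CPM with a median of 9696 CPM in *ripr*, 0.48 ± 0.149 (SE, edgeR adjusted p = 0.020). Its groups did not overlap, and the change was small beside those of the raised genes. *AT1G62914* was nearest to the thresholds at 0.80 ± 0.225 (SE, edgeR adjusted p = 0.012) and passed them with TMM factors from genes of at least 100 CPM. These PPR genes are close copies of each other, reads were placed by the unique mode of the aligner, and what that left of the stretches the copies share was not measured, so their separate values are uncertain.

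In a list of 15 disease resistance genes of the CC-NBS-LRR class, 2 of 4 tested members were raised (median 0.77). The annotation gives this class for 11 tested genes, of which 4 were raised, and not all of these are on the list. Of all 37 tested genes annotated as disease resistance 6 were raised (16.2%, median 0.07), beside 9.88% of all tested genes, and 2 without wild-type replicate 1. *RPP13*, a gene for resistance to downy mildew, had 10.2, 33.5 and 17.6 CPM in the wild type and 147.1 to 216.7 CPM with a median of 174.3 CPM in *ripr*, 3.05 ± 0.342 (SE, edgeR adjusted p = 4.7e-08). *AT5G43740* rose by 1.23 ± 0.188 (SE, edgeR adjusted p = 1.1e-05). Both overlap a neighbouring gene of the table. By contrast *AT5G43730* (0.30) and *AT5G63020* (−0.21) did not pass.

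Metallothionein genes, which encode small cysteine-rich proteins that bind metals, were raised in 4 of 5 cases (80.0%, beside 9.88% of all tested genes, median 3.93). DESeq2 called 3 of the list raised, and leaving out single libraries gave 3 to 4. Members such as *MT1A* and *MT1C* passed the filter on low counts only through the mutants, so the share and the median are a description. *MT2B* had 76.5, 47.8 and 44.1 CPM in the wild type and 709.7 to 954.5 CPM with a median of 890.1 CPM in *ripr*, 3.93 ± 0.337 (SE, edgeR adjusted p = 6.9e-10). *MT1A* had 0, 9.57 and 8.81 CPM and 276.2 to 404.5 CPM with a median of 348.4 CPM, 5.66 ± 0.514 (SE, edgeR adjusted p = 2.0e-09), and it overlaps *AT1G07590*, which was also raised. In both genes the groups were separate. *MT3* rose by 2.78 and *MT1C*, with 0 counts in the wild type, was at least 6.05-fold higher, a call lost under 4 of the alternatives. *MT2A* was not called, with a log2 fold change of −0.45.

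Genes whose mRNA carries a conserved upstream open reading frame (uORF) made up another list, in which each gene and its uORF are separate entries that share reads. Its 18 entries belong to 8 loci, of which 5 were raised (median 2.36, beside 9.88% of all tested genes raised) and 3 without wild-type replicate 2. DESeq2 called 6 of the entries raised, against 12 in edgeR. Members such as *BZIP53*, with 2, 3 and 0 wild-type counts, passed the filter on low counts only through the mutants, so the share and the median are a description. *SAMDC*, which encodes S-adenosylmethionine decarboxylase of polyamine synthesis, had 209.2, 162.6 and 202.7 CPM in the wild type and 2558 to 10120 CPM with a median of 3433 CPM in *ripr*, 4.66 ± 0.795 (SE, edgeR adjusted p = 0.00044). Its uORF entry *AT3G02468* had the same counts in all but 1 library. *bZIP2* rose by 3.26 ± 0.454 (SE, edgeR adjusted p = 4.5e-06) and *BZIP53* by 3.17 ± 0.574 (SE, edgeR adjusted p = 0.00012), both transcription factor genes whose translation is known to respond to sucrose through the uORF.

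Further genes stood out by their adjusted p. *AT4G17410* and *AT5G47430*, which encode similar proteins with a DWNN domain and a CCHC zinc finger, rose from 51.0, 57.4 and 44.1 CPM to between 900.4 and 1234 CPM and from 97.0, 105.2 and 66.1 CPM to between 986.0 and 1549 CPM. Their log2 fold changes were 4.43 ± 0.264 and 3.8 ± 0.279 (SE, edgeR adjusted p = 2.2e-14 and 4.4e-12). *SAG20*, a gene induced in senescing leaves, rose by 4.28 ± 0.259 (SE, edgeR adjusted p = 3.2e-14). Of 5 tested genes that the study annotates from earlier work on *cer7*, 3 were raised (60.0%, beside 9.88% of all tested genes). The study picked its loci in *cer7* against the same wild-type libraries, so this is a description. They were *AT5G54940* and *CER3*, both described above, and *ERD14*. *ERD14*, a dehydrin gene, rose by 3.11 ± 0.627 (SE, edgeR adjusted p = 0.0016), a call lost under 3 of the alternatives. The auxin carrier gene *AUX1* (0.86) and *AT1G09310* (−0.17) did not pass.

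Further lists are given by their counts, beside 9.88% raised and 0.720% lowered of all tested genes in edgeR. None of 14 tested genes of light-harvesting proteins and the small subunit of Rubisco was called by edgeR or DESeq2, 2 had an unadjusted p below 0.05 in edgeR (16 listed, median −0.0096 with the main scaling and 0.20 with factors from genes of at least 100 CPM, with which *CAB1* and *LHCB6* were raised). Of 8 histone H4 genes, which share long identical stretches, 0 were called by edgeR, 1 had an unadjusted p below 0.05 and 2 were called by DESeq2, with a median of 1.89. *AT1G07820* had 15.3, 33.5 and 26.4 CPM in the wild type and 222.5 to 319.0 CPM in *ripr* without overlap, 3.41 ± 1.00 (SE, edgeR adjusted p = 0.022). *RST1* and *EMB2763* were the tested members of 28 listed genes of the exosome, the Ski complex and mRNA decay, and neither was called by edgeR or DESeq2 or had an unadjusted p below 0.05 (−0.25 and −0.46). Of 6 tested HSP70 and HSP90 chaperone genes 2 were raised (33.3%, beside 9.88% of all tested genes), *HSC70-1* by 1.17 and *AT3G09440* by 1.97, while without wild-type replicate 3 none of the list was called. DESeq2 called 3 of them and 4 were higher at an unadjusted p below 0.05, among which *Hsp81.4* (2.02) and *HSP81-2* (1.51) were higher in every *ripr* library without passing. The floral organ identity genes *AP1* and *SEP3* had low counts in both genotypes and were not called (0.30 and 0.37). Small RNA counts do not report the mRNA of these markers, so the labelled tissue could not be checked with them.

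By the annotated product, transcription factors (27 of 91 tested genes raised, 29.7%) and zinc finger proteins (13 of 44, 29.5%) had more raised members than all tested genes (9.88%). The transcription factors fell to 20 without wild-type replicate 3 and the zinc finger proteins to 9 without replicate 2. The transcription factors include miRNA targets described above, such as *PHB*, *REV* and *ARF10*. Kinases (13 of 120) and ribosomal proteins (8 of 81) were near that share and fell to 5 and 4 without wild-type replicate 2. F-box and ubiquitin genes (3 of 96) were below it. The transcripts of raised genes had a median length of 1934 bases, against 1576 for all tested and 1004 for lowered genes. The median wild-type level was 12.9 CPM for raised and 45.6 CPM for all tested genes.

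The lowered genes numbered 21. *AT3G44570* (chr3:16158405-16159835, + strand) is annotated as a retrotransposon ORF-1 protein. It had 14130, 13280 and 9055 CPM in the wild type and 62.8 to 635.8 CPM with a median of 169.5 CPM in *ripr*. Small RNAs of this gene fell by 5.65 on the log2 scale (SE 0.621, edgeR adjusted p = 4.0e-06). *AT3G44580* lies 502 bases away on the other strand (chr3:16160338-16161837), encodes an uncharacterized protein and had 8353, 8256 and 4917 CPM in the wild type against 26.2 to 343.9 CPM with a median of 52.5 CPM in *ripr*. It fell by 5.97 on the log2 scale (SE 0.667, edgeR adjusted p = 4.7e-06). The groups of both neighbours were far apart, and the lowered genes together held 2.31% ± 0.373 of all wild-type counts (SD, n = 3) and 0.227% ± 0.0609 of those in *ripr* (SD, n = 6).

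*AT5G47300* (chr5:19198125-19199375, + strand), an F-box gene, had 102.0, 181.8 and 326.1 CPM in the wild type and 0 to 11.9 CPM with a median of 9.05 CPM in *ripr*, a log2 fold change of −4.60 ± 0.519 (SE, edgeR adjusted p = 8.2e-07). *AT5G46930* (chr5:19056505-19057243, − strand), a gene of the pectin methylesterase inhibitor family, had 137.8, 167.4 and 185.1 CPM and 14.9 to 31.5 CPM with a median of 20.2 CPM, −2.94 ± 0.320 (SE, edgeR adjusted p = 2.7e-08). Both lie on the same side of *RIPR* on chromosome 5, at 1.43 and 1.29 Mb from it. *AT5G35370*, a receptor-like kinase gene that overlaps a neighbouring gene, lies on the other side at 4.17 Mb and was at −2.81 ± 0.431 (SE, edgeR adjusted p = 1.1e-05), and *AT4G05470*, which encodes a leucine-rich repeat protein of the RNI-like superfamily, fell from 505.1, 617.1 and 528.7 CPM to between 116.0 and 234.1 CPM, −1.58 ± 0.208 (SE, edgeR adjusted p = 8.5e-07). For these 4 genes the groups did not overlap. *AT4G07524* (−1.95), *AT4G06526* (−1.35), *AT4G19580* (−1.20) and *AT4G10603* (−1.03) changed less, and with TMM factors from genes of at least 100 CPM *AT4G19580* and *AT4G10603* were no longer called. Of 29 tested genes annotated as retrotransposon or reverse transcriptase 3 were lowered (10.3%, beside 0.720% of all tested genes), 1 with those factors, and 1 was raised (3.45%, beside 9.88%).

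The alleles were next compared with the wild type and with each other as separate groups, in a fit of 3329 genes. *ripr(insT)* had 243 raised (7.30%) and 11 lowered (0.330%) genes against the wild type, and *ripr(insC)* had 220 (6.61%) and 19 (0.571%). Of the 288 genes raised in *ripr* 183 were raised in both alleles, 43 in *ripr(insT)* alone, 24 in *ripr(insC)* alone and 38 in neither alone. All 288 had a log2 fold change above 0 in both alleles and 284 had one above 1 in both. The 288 genes were chosen with the libraries of both alleles together, so their direction in each allele is a description. The alleles also share the 3 wild-type libraries, so these counts are not independent of each other.

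In the direct comparison of the alleles edgeR called 0 of 3329 genes (smallest adjusted p = 0.999), 91 genes had an unadjusted p below 0.05, and DESeq2 called 0. *SUO*, a gene of miRNA-guided translational repression, had the smallest unadjusted p, with 16, 14 and 16 counts in *ripr(insT)* and 5, 4 and 3 counts in *ripr(insC)*, beside 10, 13 and 13 in the wild type. *XTH26*, a relative of *XTH9*, had 22, 26 and 14 counts against 8, 6 and 4, and the PPR gene *AT1G63070* 7, 8 and 18 against 37, 17 and 21. The log2 difference of *ripr(insT)* from *ripr(insC)* was −1.54 for *AT5G15780* and −1.14 for *TUB4*, a tubulin gene. None of these differences passed after adjustment. Over the 288 raised genes the median difference was 0.13 in favour of *ripr(insT)*, 241 genes differed by less than 0.5, and the largest difference was 1.19. It belonged to *SAMDC* and its uORF entry, with 6632, 10120 and 3453 CPM in *ripr(insT)* and 2558, 3413 and 2974 CPM in *ripr(insC)*.

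**Figure D4:**
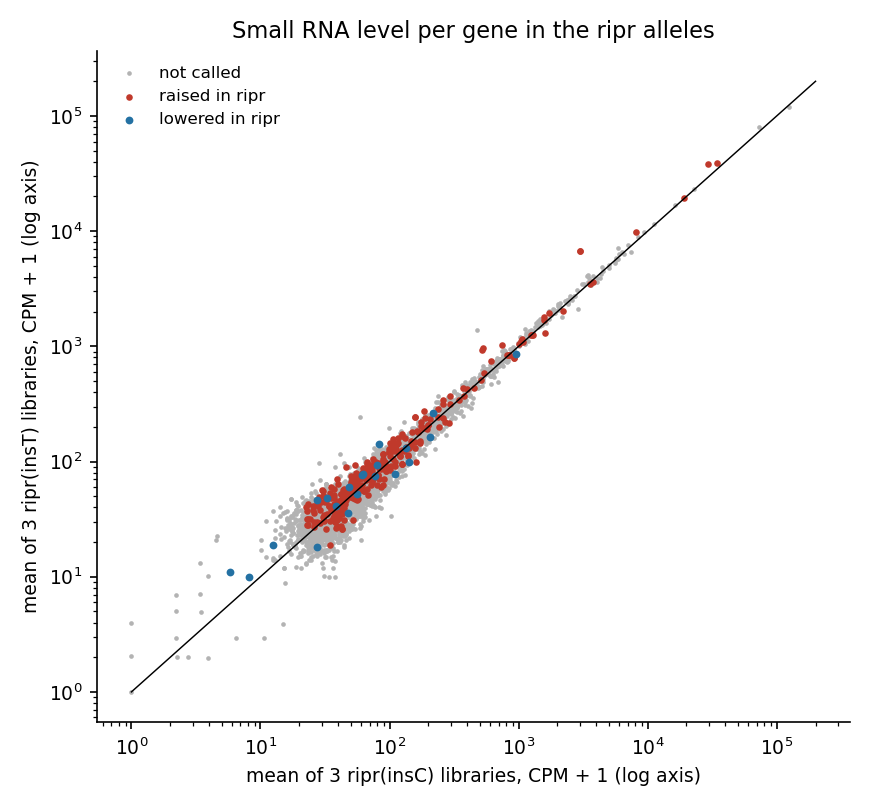
Mean small RNA level per gene in 3 *ripr(insT)* libraries (vertical axis) and 3 *ripr(insC)* libraries (horizontal axis), CPM + 1 on log axes, with the line of equal levels. The 2916 genes tested in the main fit are drawn, and raised (red) and lowered (blue) genes lie along the line. In the separate fit of the alleles 0 of 3329 genes were called between them.

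Direct tests against the other mutants showed few differences from *rst1* and more from *cer7*. Of all 2916 tested genes 3 were higher (0.103%) and 11 lower (0.377%) in *ripr* than in *rst1*, and 11 were higher (0.377%) and 73 lower (2.50%) than in *cer7*. Among the 288 raised genes 2 were higher and 0 lower than in *rst1*, while 2 were higher and 20 lower than in *cer7*, and 2 were lower than in *rst1* at an unadjusted p below 0.05. The *cer7* libraries had larger totals (305475 to 522464 counts) than those of *rst1* (192747 to 296842), and its part in these counts was not tested. The 2 genes higher than in *rst1* were *AT4G09500*, a glycosyltransferase gene, and *AT5G21125*, of no annotated function, both singled out after their values were seen. *AT4G09500* had 122.5 to 241.1 CPM in *ripr*, 4.26 to 33.6 CPM in *rst1* and 4.41 to 10.2 CPM in the wild type, a log2 difference of 2.74 (edgeR adjusted p = 0.00075). *AT5G21125* had 77.9 to 205.2 CPM in *ripr* and 0 to 5.60 CPM in *rst1*, where it lay below the wild type (9.57 to 61.7 CPM), a log2 difference of 5.78 (edgeR adjusted p = 1.2e-09). The *cer7* libraries had 21.3 to 180.0 CPM for *AT4G09500* and 87.0 to 172.5 CPM for *AT5G21125*, ranges that overlapped those of *ripr*.

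Several of the genes described above were lower than in *cer7*. *XTH9* was at 33910 ± 13470 CPM in *ripr* (SD, n = 6), and its log2 difference from *cer7* was −2.74 (edgeR adjusted p = 1.6e-05). For *CER3* the difference was −1.43 (edgeR adjusted p = 0.0085), with 4777 to 15020 CPM in *ripr* and 9890 to 34470 CPM in *cer7*, so the ranges overlapped. *ERD14*, *SAMDC* and *REV* differed by −3.51, −2.55 and −1.20 (edgeR adjusted p = 1.1e-05, 0.0060 and 1.7e-07). *ARF10* went the other way, with 1642 to 2515 CPM in *ripr* and 729.1 to 1127 CPM in *cer7*, 1.25 (edgeR adjusted p = 1.5e-06). *CRF2*, *AT5G54940* and *PHB* did not pass a test against *rst1* (0.02, 0.12 and 0.17) or against *cer7* (−0.32, 0.24 and −0.45).

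**Figure D5:**
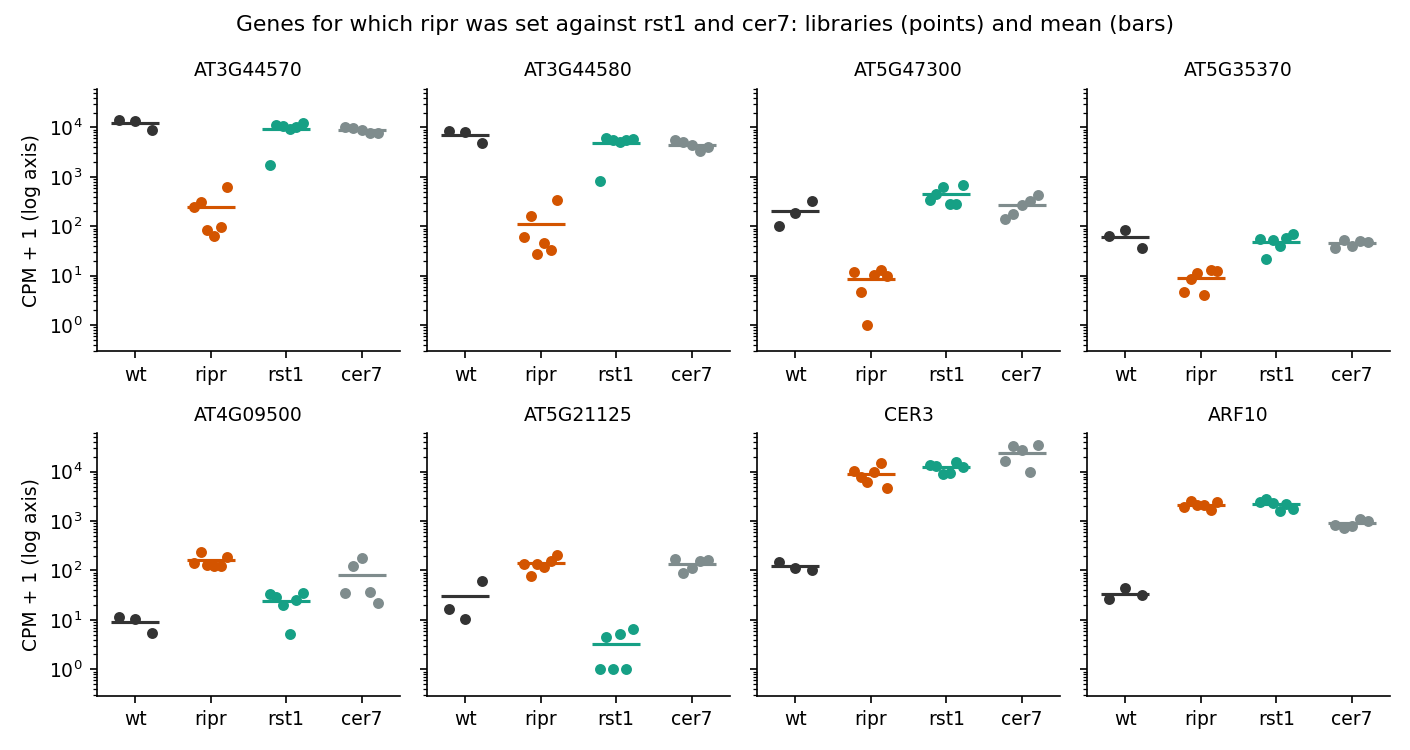
Small RNA level (CPM + 1, log axis) of 8 genes in 3 wild-type, 6 *ripr*, 6 *rst1* and 5 *cer7* libraries (points) with the mean (bars). *AT3G44570*, *AT3G44580*, *AT5G47300* and *AT5G35370* are low in *ripr* and not in *cer7*, and *AT4G09500* and *AT5G21125* are higher in *ripr* than in *rst1*.

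Among the lowered genes 4 differed from both other mutants. *AT3G44570*, *AT3G44580*, *AT5G47300* and *AT5G35370* were lower in *ripr* than in *rst1* (−5.27, −5.39, −5.71 and −2.49) and than in *cer7* (−5.18, −5.30, −4.96 and −2.37), each past both thresholds of edgeR's test. *AT3G44570* had 62.8 to 635.8 CPM in *ripr* against 1761 to 12500 CPM in *rst1* and 7559 to 9997 CPM in *cer7*. The lowest *rst1* value, 1761 CPM, came from replicate 1 of *rst1-2*, which was also lowest for *AT3G44580* with 833.7 CPM. *AT5G46930* and *AT4G05470* did not differ from *rst1* (−0.20 and 0.23) or *cer7* (0.46 and 0.43) at the thresholds.

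Only 8 of the 288 raised genes were raised in neither *cer7* nor *rst1* against the same wild-type libraries, which does not show that they differ between the mutants. *SAP130b*, a splicing factor gene, was the only one of the 8 to differ from *cer7* in the direct test, at 1.11 (edgeR adjusted p = 0.0085), with 73.4 to 114.8 CPM in *ripr*, 30.0 to 66.5 CPM in *cer7* and 33.7 to 98.1 CPM in *rst1*. The other 7 were *SUVH9* (a SET-domain protein of DNA methylation), *ASB1* (an anthranilate synthase subunit), *AT1G63360* (a disease resistance protein), *MIF2* (a mini zinc finger protein), *FAD2* (an oleate desaturase), *MYB13* (a transcription factor) and *AT5G11430*. Their medians in *ripr* lay between 35.3 and 111.5 CPM, and every one of the 8 calls was lost under 3 or more alternatives, that of *MYB13* under 14.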

How the data were processed

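The authors trimmed reads with cutadapt 1.18 and placed them on TAIR10 with ShortStack (unique mode, perfect matches only). The deposited values are raw counts of reads of 21 and 22 nt per gene, 1 column per library, without normalization or pooling. The counting tool, the use of strand and the treatment of overlapping genes are not given in the sources used here. The table holds 27415 genes, 26718 of which were matched to the RefSeq annotation of TAIR10.1, and 0 columns were left out.

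Counts were analysed in R 4.3.3 with edgeR 4.0.16 (filterByExpr with a minimum count of 10 and a minimum total of 15, TMM, glmQLFit with the robust option, glmQLFTest, Benjamini-Hochberg adjustment over all tested genes). The fit held 20 libraries in 4 genotype groups, since the study analysed both alleles together, and 7 groups for the alleles. Genes were called at an adjusted p below 0.01 and a log2 fold change past 1, the thresholds of the study. Its methods name DESeq2, run here as an alternative (1.42.0). The edgeR fit was first tested on simulated data. Totals are of 1 length class on genes and are not the depth of the libraries. Replicate pairs differed by more than counting noise, with a chi-square of 3.79 to 10.4 per degree of freedom. P-values cover the spread between these pools of plants.

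Ratios against 1 to 3 wild-type counts have exact 95% intervals. The naming rule covered the 10 largest changes without overlap, the 10 smallest adjusted p in each direction, the 10 highest levels, up to 8 genes raised in *ripr* alone, the 5 smallest p between alleles, up to 4 members of each gene list, and the genes of the mutants with those marked from an earlier study. The members and lists were chosen with earlier results of these data known.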

Additional observations from a re-analysis of the deposited data

Results flagged for a closer look

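The 6 *ripr* libraries of each of the 130 genes named in the text were searched for 1 library that stood apart from the other 5, which chance gives for about 1 gene in 20, and 7 genes had one. *SAG20* had 835.8 CPM in *ripr(insC)* replicate 1 against 1093 to 1176 CPM in the others, and *CUC2* had 62.9 CPM in *ripr(insC)* replicate 3 against 119.0 to 144.7 CPM. Both lay above every wild-type library in these samples too. *NIP5;1* had 5.78 CPM, 2 counts, in *ripr(insT)* replicate 3 against 31.4 to 43.0 CPM. *MT3* had 222.9 CPM in *ripr(insT)* replicate 1 against 175.8 to 185.5 CPM. Of the genes that were not called, *AGO2* had 530.7 CPM in *ripr(insT)* replicate 1 against 369.5 to 425.3 CPM, *EMB2763* 116.0 CPM in *ripr(insT)* replicate 2 against 57.7 to 77.9 CPM, and *SEP3* 62.9 CPM in *ripr(insC)* replicate 3 against 9.42 to 28.7 CPM. No single library stood apart in more than 2 of these genes.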

How the results depend on the processing

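No result changed its direction among called genes under the alternatives run. The counts of genes raised and lowered in *ripr* ranged from 186 to 281 and from 13 to 26 when single libraries were left out, those of *ripr(insT)* from 167 to 235 and from 9 to 19, and those of *ripr(insC)* from 139 to 184 and from 12 to 36. The lowest counts of raised genes came without wild-type replicate 2 in *ripr* and *ripr(insC)* and without wild-type replicate 3 in *ripr(insT)*. Against a log2 fold change of 1, 127 genes were raised and 5 lowered in *ripr*, 129 and 6 in *ripr(insT)*, and 90 and 5 in *ripr(insC)*. At an adjusted p of 0.05, 33 genes were lowered in *ripr*, 402 raised and 35 lowered in *ripr(insT)*, and 356 raised and 38 lowered in *ripr(insC)*. Without a filter on low counts 12 genes were lowered in *ripr* and 11 in *ripr(insC)*. TMM factors from genes of at least 100 CPM, chosen after seeing the data, left 10 lowered in *ripr* and 11 in *ripr(insC)*. DESeq2 called 198 genes raised and 22 lowered, 193 and 20 of them among the reported ones. The estimates without the robust option, also chosen after seeing the data, gave 289 raised and 21 lowered. The causes of these shifts were not tested.

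The replicate number was not a term of the main fit. Deviations of same-numbered libraries from their group means correlated between 0.0041 and 0.11, and those of differently numbered libraries between −0.092 and 0.066. Whether the numbers mark shared growth dates was not tested. With the replicate number as a block 297 genes were raised and 25 lowered in *ripr*, and 18 were lowered in *ripr(insT)*. Across all alternatives 112 of the raised and 3 of the lowered genes kept their call, and 144 and 7 did when only single libraries were left out. The comparison of the alleles had 0 calls under each alternative run. Low counts limit the size of single changes, since 10 of the raised genes had 0 and 58 had 1 to 3 wild-type counts in total.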

Other observations

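Further raised genes, all chosen after their values were seen, are given here as values. *CRF1*, a relative of *CRF2* and also an AP2/ERF transcription factor gene, had 10.2, 4.78 and 4.41 CPM in the wild type and 68.2 to 95.4 CPM in *ripr*, a log2 fold change of 3.57 (edgeR adjusted p = 4.0e-06). *GSTU20*, a glutathione S-transferase gene, had 10.2, 0 and 0 CPM in the wild type and 99.7 to 197.8 CPM in *ripr*, a ratio of levels of 46.7 with a counting interval from 12.8 to 388 (exact, 95%). *MTO1*, the gene of cystathionine gamma-synthase in methionine synthesis, rose by 2.90 (edgeR adjusted p = 1.3e-06), *APR3*, which encodes an APS reductase of sulfate assimilation, by 3.19 (edgeR adjusted p = 1.1e-06) and *MTO3*, an S-adenosylmethionine synthetase, by 1.22 (edgeR adjusted p = 0.0052), the last passing in neither allele taken alone. *APR3* and *MTO3* each overlap a neighbouring gene. *VTC2*, which encodes an enzyme of ascorbate synthesis, rose by 3.03 (edgeR adjusted p = 9.9e-06), and *LTP6*, a lipid transfer protein gene, had 66.3, 52.6 and 70.5 CPM in the wild type and 297.7 to 560.6 CPM in *ripr* (2.68, edgeR adjusted p = 2.9e-09). These genes were not tested as a list.

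*AT5G18040*, annotated as a target of *trans*-acting siRNA, and *NIP5;1*, a boron channel gene, had 0 counts in all 3 wild-type libraries and were above 0 in all 6 *ripr* libraries, at 5.24 to 53.8 CPM (at least 6.90-fold higher) and 5.78 to 43.0 CPM (at least 6.42-fold higher). The calls of both, and that of *MTO3*, were not kept in every fit that left out 1 library. *AT5G43755*, annotated as a reverse transcriptase, was the raised gene of that annotation, with 0, 0 and 8.81 CPM in the wild type and 115.4 to 196.5 CPM in *ripr*, a ratio of 56.1 (15.4 to 465.5).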
